A study of Mus musculus with 10 samples.

Results

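Prostaglandins and leukotrienes are lipid mediators made from arachidonic acid, and their synthesis is described here through 10 genes: the phospholipase Pla2g4a, the prostanoid enzymes Ptgs1, Ptgs2, Hpgds and Tbxas1, the leukotriene genes Alox5, Alox5ap, Ltc4s and Lta4h, and the leukotriene B4 receptor Ltb4r1. They were taken by symbol from a table of 22815 genes, and all 10 had a row. The data were bulk RNA-seq of mast cells flow-sorted from the lower airway, the donors being wild-type C57BL/6 mice of 5 to 7 weeks. All mice were challenged intranasally in 20 µL, 2 times a week for 3 weeks, either with saline or with 3 µg of house dust mite (HDM) extract, an allergen preparation. The sorted populations are labelled B7hi and B7low, which the published use of these names ties to high and low integrin β7 and to inducible and constitutive mast cells. There were 2 libraries each of B7hi and B7low cells with saline and 3 each with HDM. Whether a library came from separate or pooled animals is not in the labels, so the p-values below reflect library-to-library spread alone, some of which may be technical.

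In mast cells, cytosolic phospholipase A2 frees arachidonic acid from membranes after activation. The cyclooxygenases turn it into an intermediate that hematopoietic prostaglandin D synthase makes into prostaglandin D2, the main prostanoid of mast cells. Alternatively, 5-lipoxygenase and its activating protein convert arachidonic acid to leukotriene A4, from which leukotriene C4 synthase and leukotriene A4 hydrolase make leukotrienes C4 and B4. Both classes contract airway smooth muscle or draw leukocytes into the airway.

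Total counts per library ran from 525983 to 1725818, and levels are given in CPM, counts scaled to a common library size. With no count in the shallowest library, a level of up to 5.70 CPM remains possible, and in the deepest 1.74 CPM. These limits are 3 counts over the library total without TMM scaling, unlike the levels below, and cover counting error only. The 10 mast cell markers checked, among them Kit, Fcer1a and Cpa3, had counts in every group and summed to between 14263 and 96232 CPM. That sum was 14263 and 16862 CPM in B7hi and 57195 and 96232 CPM in B7low with saline, and 19543 to 32263 and 50204 to 70021 CPM with HDM. With saline its proteases Cma1, Cpa3 and Tpsb2 averaged 1766, 5186 and 382 CPM in B7hi and 25771, 20638 and 13172 CPM in B7low. These, Fcer1a, Il1rl1 and Hdc were lower in B7hi there (edgeR adjusted p up to 0.047). Kit, Gata2, Ms4a2 and Mitf were not called (0.25, 0.58, 0.89 and 0.082). B7low saline 2 and B7hi HDM 2 stood apart on the second principal component (18.4% of the variance) and had the lowest total counts (639906 and 525983). The transcript Kcnq1ot1 stood at 6956 CPM in B7low saline 2 and 12133 CPM in B7hi HDM 2, and at 806 to 2794 CPM in the other libraries. B7low saline 1 had nearly as few counts (652736) and did not stand with them. The part of depth in their position was not tested. Itgb7, the transcript of integrin β7, overlapped between the populations with HDM. It stood at 681 and 1011 CPM in B7hi and 603 and 570 CPM in B7low with saline, and at 341 to 861 against 550 to 919 CPM with HDM (average log2 fold change 0.16 ± 0.24, edgeR adjusted p = 0.73). Its partner Itga4 was higher in B7hi (2.53 ± 0.27, adjusted p = 2.3e-05), at 313 to 983 against 75.2 to 167 CPM, and so was Itgae (4.93 ± 0.85, 0.010).

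The levels differed widely between the genes. Genes were compared per kb of annotated exon, merged over all annotated isoforms, so their order is approximate. On this scale Alox5ap led with a mean of 259 CPM per kb over the 10 libraries and Alox5 followed with 199. Ptgs2 (37.1), Ltb4r1 (36.2) and Hpgds (33.5) came next. Lta4h (13.3), Ptgs1 (13.0), Pla2g4a (6.77), Tbxas1 (4.62) and Ltc4s (3.22) were the lowest. Below the leading pair the order differed by group. In B7hi with saline Ltb4r1 followed them at a mean of 86.2 CPM per kb, and in B7low with saline it was the lowest of the 10 at 2.45. Ptgs2 was at 35.1 and 4.23 CPM per kb in those groups, and Ptgs1 at 1.52 and 14.7. In CPM, Alox5 ranked 97 among the 10533 genes that passed the count filter. Ltc4s did not pass that filter, so 9 of the 10 genes were tested.

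The windows around the start sites of 4 genes are shown because 3 of them, Ptgs1, Hpgds and Ltb4r1, passed the test between the populations, and Ptgs2 had the opposite order of levels to Ptgs1 with saline. Each runs 5′ to 3′ on the gene's strand from 250 bases before to 50 bases after the start in RefSeq (GRCm38.p6), and capitals mark matches, on either strand, to the letters searched for: for GATA factors AGATAA and its forms that begin with T, end with G or do both, for E-boxes bound by MITF among others CATGTG or the palindrome CACGTG, for the AP-1 factors TGACTCA, and for the core of the cAMP response element TGACGT.
Ptgs1 (chr2:36230176-36230475, plus strand): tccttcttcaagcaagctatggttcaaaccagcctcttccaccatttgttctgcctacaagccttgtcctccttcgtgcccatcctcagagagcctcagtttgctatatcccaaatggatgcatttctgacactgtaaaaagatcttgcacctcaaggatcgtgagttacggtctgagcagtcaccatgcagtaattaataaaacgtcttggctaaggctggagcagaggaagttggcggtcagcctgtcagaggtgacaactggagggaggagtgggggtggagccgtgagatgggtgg
Hpgds (chr6:65144681-65144980, minus strand): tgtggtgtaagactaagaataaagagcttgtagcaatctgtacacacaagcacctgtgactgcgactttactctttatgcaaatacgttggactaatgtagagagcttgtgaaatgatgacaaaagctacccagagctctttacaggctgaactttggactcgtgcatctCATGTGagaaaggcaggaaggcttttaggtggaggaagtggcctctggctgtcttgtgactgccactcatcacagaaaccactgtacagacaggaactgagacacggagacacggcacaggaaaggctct
Ltb4r1 (chr14:55765712-55766011, plus strand): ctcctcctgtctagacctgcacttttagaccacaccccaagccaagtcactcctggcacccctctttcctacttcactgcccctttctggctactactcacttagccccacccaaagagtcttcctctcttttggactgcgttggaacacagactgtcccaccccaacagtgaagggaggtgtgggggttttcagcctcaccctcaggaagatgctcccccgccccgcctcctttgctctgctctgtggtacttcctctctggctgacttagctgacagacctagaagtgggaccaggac
Ptgs2 (chr1:150099781-150100080, plus strand): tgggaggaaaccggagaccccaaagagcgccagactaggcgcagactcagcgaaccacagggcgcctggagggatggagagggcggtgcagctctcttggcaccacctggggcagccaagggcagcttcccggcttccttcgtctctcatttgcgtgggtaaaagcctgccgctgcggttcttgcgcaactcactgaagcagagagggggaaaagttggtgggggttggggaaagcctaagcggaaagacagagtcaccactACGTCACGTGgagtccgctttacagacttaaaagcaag
Hpgds held 1 match, the E-box letters CATGTG from 80 to 75 bases before the start. In Ptgs2 the core of the cAMP response element (12 to 17 bases after the start) overlapped an E-box match, CACGTG (16 to 21 bases after). Ptgs1 and Ltb4r1 held none of these letters. Of 32851 such windows in the table, 29.8% held a GATA match, 20.4% an E-box, 5.2% the AP-1 letters and 7.51% the core of the cAMP response element. Elsewhere among the genes, E-box letters stood in Pla2g4a and GATA letters in Alox5 and in an alternative start of Pla2g4a. A match is a description and not a site.

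**Figure D1:**
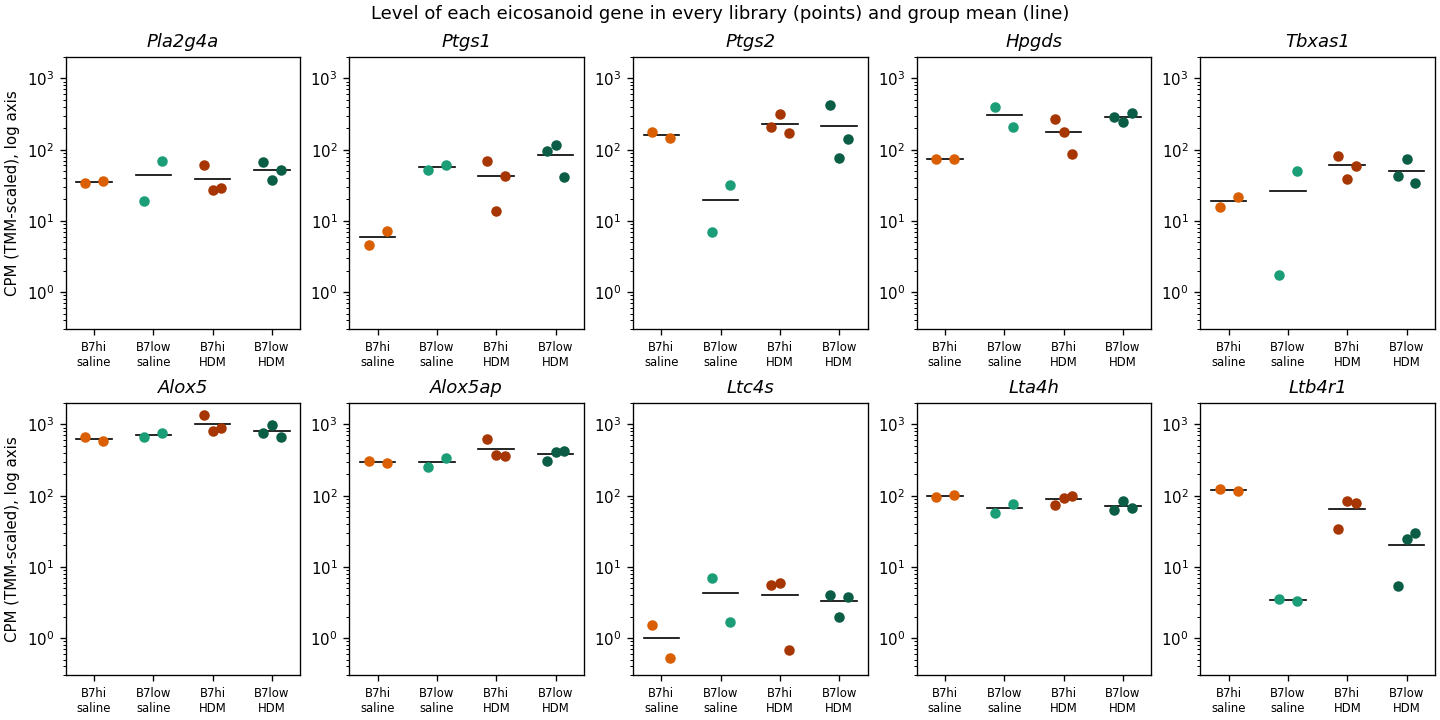
Level of each of the 10 genes in CPM (log axis) in the 10 libraries, with points for libraries and lines for group means. Ltb4r1 stood at 124 and 116 CPM in B7hi and 3.50 and 3.34 CPM in B7low with saline, while Alox5 ranged between 585 and 1363 CPM over all libraries.

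The comparison of the populations with saline asks what sets the populations apart in airways given no allergen. B7hi cells had lower Ptgs1 and Hpgds and higher Ltb4r1, the leukotriene B4 receptor, while Ptgs2, the other cyclooxygenase, had higher levels in B7hi without passing the test. Of the 9 tested genes, 1 was higher and 2 were lower in B7hi at edgeR adjusted p under 0.05, against 2.91% of the 10533 genes higher and 3.64% lower (6.54% in all). The median log2 fold change of the 9 was −0.19, against 0.03 over all tested genes. For 6 of the 9 every B7hi library lay on the same side of every B7low library, against 51.9% of all tested genes. In bulk samples, fewer cells of a type and less RNA per cell cannot be told apart.

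Ltb4r1 (chromosome 14, 55765962 to 55768494), the high-affinity receptor through which leukotriene B4 attracts leukocytes, showed the largest difference of the 9. With saline it stood at 124 and 116 CPM in B7hi (164 and 223 counts) and at 3.50 and 3.34 CPM in B7low, with 2 counts in each library. The groups were far apart and the libraries within each nearly equal, but 2 counts per library give the B7low level little precision. The log2 fold change was 5.09 ± 0.77 (approximate SE), a fitted ratio of 34.1 (edgeR adjusted p = 9.1e-04). This call held without each of the 10 libraries (adjusted p up to 0.022) and was lost with limma-voom alone of the alternatives tried (4.81, adjusted p = 0.091).

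Other leukocytes also carry Ltb4r1, so markers of other cell types were summed per library. T cell markers summed to 4.53 and 184 CPM in B7hi saline 1 and 2, whose Ltb4r1 levels were 124 and 116 CPM. Neutrophil markers summed to 9.07 and 13.6 CPM in B7hi and 19.2 and 56.9 CPM in B7low with saline, with 4 and 6 of the 9 in the table at 0 in the group. Eosinophil markers summed to 27.2 and 27.7 against 56.0 and 120 CPM, with 5 of 7 at 0 in both groups. Macrophage and monocyte markers summed to 42.3 and 56.9 against 15.7 and 18.4 CPM, with 6 and 8 of 12 at 0. Ccr2 alone gave 34.8 and 49.6 CPM of these sums in B7hi and 12.2 and 11.7 CPM in B7low. T cell markers at 0 were 0 of 7 in B7hi and 4 of 7 in B7low. With saline, the sums for macrophages and monocytes, NK cells, ILC2 and epithelium were higher in B7hi, as Ltb4r1 was. NK cell markers summed to 528 and 661 CPM in B7hi and 38.5 and 124 CPM in B7low with saline (0 and 3 of 5 at 0), and with HDM to 199, 327 and 719 against 35.2, 115 and 224 CPM. Nkg7 and Gzma made up most of this sum, and Ncr1, a defining NK cell gene, was at 0.76 and 1.04 CPM in B7hi with saline. Innate lymphoid cell (ILC2) markers summed to 339 and 244 against 173 and 100 CPM with saline (0 and 1 of 6 at 0), and to 174 to 225 against 82.0 to 255 CPM with HDM, with overlap. Epithelial markers summed to 187 and 137 against 10.5 and 26.8 CPM (5 and 7 of 9 at 0), and to 73.8 to 138 against 58.5 to 132 CPM with HDM, with overlap. Cdh1 alone gave 177 and 124 CPM of the B7hi sums with saline, and Epcam was at 0 and 0.52 CPM. Basophil markers, some of which mast cells share, summed to 2414 and 1895 CPM in B7hi and 1509 and 2017 CPM in B7low with saline. With HDM they summed to 2571, 2486 and 3166 CPM in B7hi and 1660, 2359 and 2210 CPM in B7low, without overlap. Within that list Mcpt8 was higher in B7hi averaged over both challenges (log2 fold change 2.37 ± 0.47, edgeR adjusted p = 0.012), as was Ifitm1 (1.85 ± 0.43, 0.022), and Prss34 (−5.27 ± 0.35, 3.5e-07) and Cd200r3 (−2.39 ± 0.25, 1.2e-05) were lower. The part of such cells in the Ltb4r1 difference was not tested.

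Ptgs1 (chromosome 2, 36230426 to 36252272), which encodes the constitutive cyclooxygenase 1, was lower in B7hi with saline. It stood at 4.53 and 7.31 CPM in B7hi (6 and 14 counts) and at 52.5 and 61.9 CPM in B7low (30 and 37 counts). The groups did not overlap, with a log2 fold change of −3.22 ± 0.67 (edgeR adjusted p = 0.011). Leaving out a saline library ended the call in each case: B7hi saline 1 (−2.93, adjusted p = 0.11), B7hi saline 2 (−3.63, 0.061), B7low saline 1 (−3.29, 0.051) or B7low saline 2 (−3.07, 0.066).

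Hpgds (chromosome 6, 65117293 to 65144908), the synthase of prostaglandin D2, stood at 74.1 and 73.6 CPM in B7hi and at 399 and 211 CPM in B7low with saline. The B7hi libraries were alike, and both B7low libraries lay above them. The log2 fold change was −2.04 ± 0.44 (edgeR adjusted p = 0.012). It lost its call without B7hi saline 1 (−2.04, adjusted p = 0.11), B7hi saline 2 (−2.05, 0.094) or B7low saline 1 (−1.47, 0.10).

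Ptgs2 (chromosome 1, 150100031 to 150108227), the inducible cyclooxygenase 2, had the opposite order. It stood at 175 and 147 CPM in B7hi and at 6.99 and 31.8 CPM in B7low with saline, from 4 and 19 counts in the latter. The groups did not overlap, but the difference did not pass the test (log2 fold change 3.03 ± 0.92, edgeR adjusted p = 0.093). It passed with DESeq2 (2.97, adjusted p = 0.028), with no count filter (5.4e-04), with only the saline groups in the fit (0.031) and without B7low HDM 1 (0.0040) or B7low HDM 2 (0.031). Over all its alternatives the adjusted p ran from 5.4e-04 to 0.39. Ptgs2 is an immediate early gene, and 5 others (Fos, Jun, Egr1, Ier2 and Dusp1, chosen after values were seen) summed to 2325 and 5909 CPM in B7hi and 23019 and 15959 CPM in B7low with saline, the reverse order of Ptgs2. Their part in the Ptgs2 levels was not tested.

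The make-up of the cyclooxygenase signal can be read per library. Per kb of exon, Ptgs2 made up 97.0% and 94.5% of the Ptgs1 and Ptgs2 signal in B7hi and 10.2% and 30.3% in B7low. With HDM the share was 71.5%, 95.2% and 77.2% in B7hi and 79.1%, 35.9% and 74.2% in B7low. The shares of the populations were far apart with saline and overlapped with HDM.

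**Figure D2:**
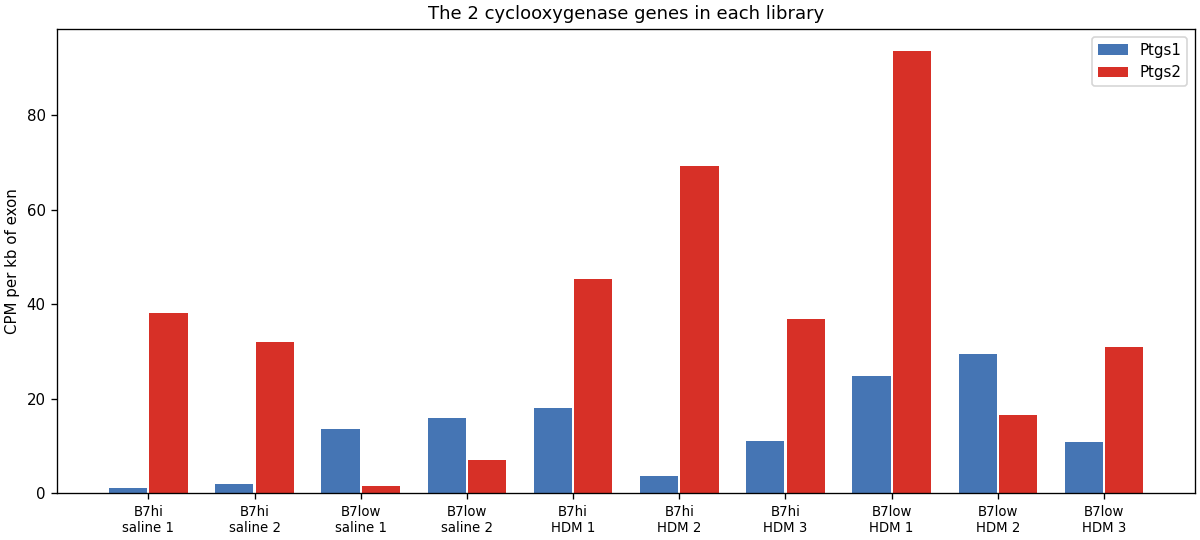
Ptgs1 and Ptgs2 in CPM per kb of exon in each of the 10 libraries (1 bar per gene and library). With saline, Ptgs2 took 94.5% or more of the summed signal in B7hi and at most 30.3% in B7low.

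None of the tested leukotriene enzymes passed the test with saline. Alox5 (chromosome 6, 116410077 to 116461178), which encodes 5-lipoxygenase, stood at 670 and 585 CPM in B7hi and 675 and 752 CPM in B7low. Its B7hi values lay just below those of B7low, by a log2 fold change of −0.19 ± 0.30 (edgeR adjusted p = 0.76). Alox5ap (chromosome 5, 149264767 to 149288153), the membrane protein that presents arachidonic acid to 5-lipoxygenase, stood at 311 and 286 against 252 and 336 CPM, with overlapping groups (0.02 ± 0.31, adjusted p = 0.98). Lta4h (chromosome 10, 93453411 to 93484875), which makes leukotriene B4, stood at 94.5 and 102 against 57.7 and 76.9 CPM without overlap and did not pass (0.55 ± 0.32, adjusted p = 0.34).

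Ltc4s (chromosome 11, 50236461 to 50238616), the synthase of leukotriene C4, had between 1 and 9 counts in a library and 33 in all 10 libraries. In CPM it stood at 1.51 and 0.52 in B7hi and 6.99 and 1.67 in B7low with saline, and at 5.63, 5.87 and 0.68 in B7hi and 4.07, 1.95 and 3.79 in B7low with HDM. Most of these levels rest on about 3 counts or fewer in a library, with 9 in B7hi HDM 1 and 6 in B7low HDM 3. With 33 counts in all they have little precision. Tested with no count filter, Ltc4s was not called in any of the 6 contrasts (edgeR log2 fold change −1.94, adjusted p = 0.61 with saline, and adjusted p of 0.83 or more in the others). Its annotated exons span 1014 bases, of which 268 are shared with an antisense gene whose reads cannot be told apart without strand. Ptgs1, Tbxas1 and Alox5ap share 148, 144 and 189 exonic bases with antisense genes in the same way.

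The remaining genes varied within groups. Pla2g4a (chromosome 1, 149829618 to 149961290), the phospholipase that starts the pathway, stood at 34.0 and 36.5 CPM in B7hi and at 19.2 and 70.2 CPM in B7low with saline. Tbxas1 (chromosome 6, 38875404 to 39084585), the thromboxane synthase, stood at 15.9 and 21.9 against 1.75 and 50.2 CPM, with 1 and 30 counts in the B7low libraries. For both genes B7low saline 1 was the lowest of all 10 libraries. Neither passed the test (edgeR adjusted p = 0.75 and 0.78). With B7low saline 2 and B7hi HDM 2 both left out, the log2 fold change of Pla2g4a turned from −0.35 to 0.86. That of Tbxas1 turned from −0.46 to 3.37. This fit leaves B7low saline 1, with 1 Tbxas1 count, alone in its group. Platelets are known for thromboxane synthesis. Of the platelet and megakaryocyte markers, Gp9, Gp1bb and Tubb1 were at 0 and Pf4 and Ppbp at 3.34 CPM or less in B7low with saline. Itgb3, the remaining marker of that list, stood at 6.99 CPM in B7low saline 1 and 46.8 CPM in B7low saline 2, the order of Tbxas1. Its part in the Tbxas1 levels was not tested.

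The same comparison with HDM asks whether the populations differ after allergen. The cyclooxygenase and prostaglandin D synthase levels overlapped between the populations there, and 0 of the 9 genes passed edgeR's test, against 2.84% of all tested genes. At an unadjusted p under 0.05 there was 1 (Ltb4r1), against 13.6% of all tested genes. With DESeq2 1 gene passed and with limma-voom 0. The median log2 fold change of the 9 was 0.24, against 0.03 over all tested genes.

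With HDM, Ltb4r1 stood at 33.8, 84.2 and 78.8 CPM in B7hi and at 5.42, 24.7 and 30.3 CPM in B7low. The groups did not overlap, which held for 1 of the 9 genes against 20.5% of all tested genes. The log2 fold change was 1.58 ± 0.45 (edgeR adjusted p = 0.078). It passed with DESeq2 (1.63, adjusted p = 0.033), with no count filter (0.0015), without B7hi HDM 1 (1.92, 0.029) and with the replicate number as a block (1.68, 0.027, and 1.78, 0.010 with the number nested in the challenge). Over its alternatives the adjusted p ran from 0.0015 to 0.26.

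Ptgs1 stood at 70.0, 13.7 and 42.5 CPM in B7hi with HDM and at 96.2, 114 and 41.7 CPM in B7low. B7hi HDM 2, the shallowest library, held 7 counts. Hpgds stood at 270, 174 and 86.3 against 291, 248 and 328 CPM, and the highest B7hi library lay within the B7low range. Neither passed (log2 fold changes −0.91 ± 0.45 and −0.71 ± 0.34, edgeR adjusted p = 0.41 and 0.39). Ptgs2 stood at 208, 317 and 169 against 428, 75.4 and 142 CPM (0.11 ± 0.61, adjusted p = 0.96). Its spread was widest in B7low, between 75.4 and 428 CPM. There the 5 immediate early genes summed to 19576, 13720 and 16013 CPM in the same order of libraries.

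Alox5 stood at 1363, 802 and 900 CPM in B7hi with HDM and at 770, 994 and 677 CPM in B7low (log2 fold change 0.33 ± 0.25, edgeR adjusted p = 0.63). B7hi HDM 1 was the highest library for Alox5 and, at 624 CPM, for Alox5ap, which otherwise stood at 370 and 355 CPM in B7hi and at 308, 411 and 425 CPM in B7low. Alox5ap, Lta4h, Pla2g4a and Tbxas1 did not pass either (adjusted p = 0.76, 0.69, 0.78 and 0.89). With HDM, Lta4h ranged from 63.7 to 97.9 CPM, Pla2g4a from 27.4 to 67.8 CPM and Tbxas1 from 33.5 to 81.9 CPM over the 6 libraries.

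Averaged over both challenges, which uses all 10 libraries, the same 3 genes as with saline passed between the populations. Ltb4r1 was higher in B7hi (log2 fold change 3.34 ± 0.45, edgeR adjusted p = 1.4e-04), and Ptgs1 (−2.06 ± 0.41, 0.0038) and Hpgds (−1.38 ± 0.28, 0.0045) were lower. That is 1 higher and 2 lower of 9, against 5.8% and 6.08% of all tested genes (11.9% in all). Each of the 3 calls held under every alternative run for this comparison, with adjusted p up to 0.014 for Ltb4r1, 0.031 for Ptgs1 and 0.036 for Hpgds. The CPM ranges of all B7hi and all B7low libraries were apart for 1 of the 9, Ltb4r1, against 9.4% of all tested genes. The saline libraries are shared with the comparison above, so these values are not independent of it.

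For the other 6 genes the average did not pass the test. Alox5 differed by 0.07 ± 0.19 on the log2 scale and Alox5ap by 0.13 ± 0.20 (edgeR adjusted p = 0.86 and 0.73). Lta4h differed by 0.42 ± 0.20 (adjusted p = 0.20) and Ptgs2 by 1.57 ± 0.55 (0.11). Ptgs2 passed without B7low HDM 1 (2.05, adjusted p = 0.0016). Tbxas1 differed by −0.09 ± 0.49 (adjusted p = 0.93), and without both B7low saline 2 and B7hi HDM 2 it turned to 1.91. Pla2g4a differed by −0.36 ± 0.34 (adjusted p = 0.56) and turned to 0.32 without both. In that fit B7low saline 1, with 1 Tbxas1 count, is alone in its group.

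**Figure D3:**
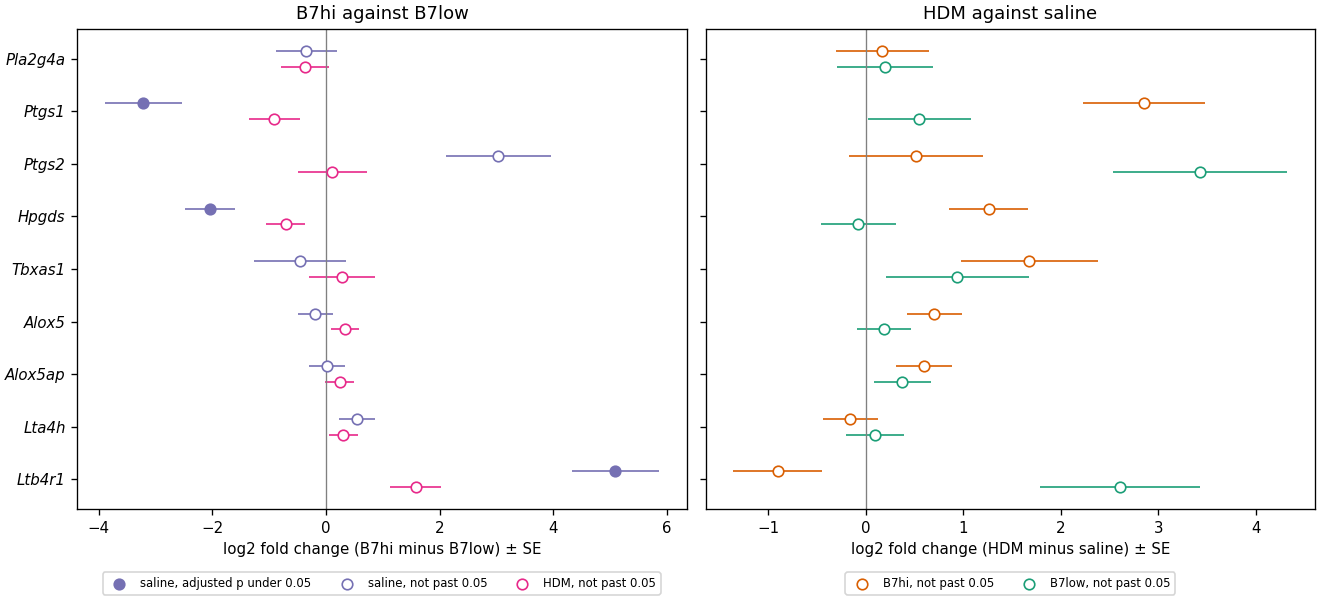
Log2 fold changes (± approximate SE) of the 9 tested genes between B7hi and B7low (left, by challenge) and between HDM and saline (right, by population). Filled points passed edgeR adjusted p under 0.05: Ltb4r1, Ptgs1 and Hpgds between the populations with saline.

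The comparison of HDM with saline asks how each population responds to allergen. In B7hi, 0 of the 9 genes passed edgeR's test, against 0.00949% of all tested genes, and 4 had an unadjusted p under 0.05, against 4.13%. DESeq2 called 1 gene and limma-voom 0. The CPM ranges were apart for 6 of the 9, against 20.6% of all tested genes. The median log2 fold change of the 9 was 0.60, against 0.02 over all tested genes.

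In B7hi, Ptgs1 was at 13.7 to 70.0 CPM with HDM and at 4.53 and 7.31 CPM with saline, without overlap (log2 fold change 2.85 ± 0.63, edgeR adjusted p = 0.17). DESeq2 called this difference (2.86, adjusted p = 0.0025). Hpgds was at 86.3 to 270 against 73.6 and 74.1 CPM (1.26 ± 0.40, edgeR adjusted p = 0.72). For both genes every HDM library of B7hi lay above the saline ones, with a wide spread. Tbxas1 was at 39.1 to 81.9 against 15.9 and 21.9 CPM (1.68 ± 0.70) and Alox5 at 802 to 1363 against 585 and 670 CPM (0.70 ± 0.28), both with an edgeR adjusted p of 1.0. Ltb4r1 went the other way, at 33.8 to 84.2 against 116 and 124 CPM (−0.90 ± 0.45, adjusted p = 1.0). Platelet and megakaryocyte markers summed to 235, 133 and 58.9 CPM in B7hi with HDM and 21.9 and 68.4 CPM with saline. Of these sums Itgb3 alone gave 233, 127 and 56.8 CPM and 21.2 and 65.3 CPM, while Pf4, Ppbp, Gp9 and Gp1bb were at 3.91 CPM or less and Tubb1 at 0 in every B7hi library.

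In B7low, 0 of the 9 genes passed edgeR's test either, against 0.00949% of all tested genes, and 2 had an unadjusted p under 0.05, against 9.08%. Ptgs2 was at 75.4 to 428 CPM with HDM against 6.99 and 31.8 CPM with saline (log2 fold change 3.43 ± 0.89, edgeR adjusted p = 0.33), and DESeq2 called it (3.42, adjusted p = 0.049), while limma-voom called 0 of the 9. Ltb4r1 was at 5.42 to 30.3 against 3.34 and 3.50 CPM (2.61 ± 0.82, edgeR adjusted p = 0.36). These 2 genes were the ones whose ranges did not overlap, against 23.9% of all tested genes. For Ltb4r1 that gap rests on 4 counts in B7low HDM 1 against 2 counts in each saline library. Hpgds, at 248 to 328 against 211 and 399 CPM, and Ptgs1, at 41.7 to 114 against 52.5 and 61.9 CPM, overlapped between the challenges. B cell markers summed to 606, 386 and 83.4 CPM in B7low HDM 1, 2 and 3, and to 17.5 and 25.1 CPM with saline. In those HDM libraries Ptgs2 was 428, 75.4 and 142 CPM and Ltb4r1 5.42, 24.7 and 30.3 CPM. Endothelial markers summed to 336, 165 and 96.7 CPM there, with 59.4 and 174 CPM with saline, so that B7low HDM 1 was highest in Ptgs2 and in both sums. The part of such cells in the Ptgs2 and Ltb4r1 levels was not tested. Tbxas1 differed by 0.94 ± 0.73 (adjusted p = 0.73). With B7low saline 2 and B7hi HDM 2 both left out, it differed by 4.78 against B7low saline 1 alone, which held 1 Tbxas1 count.

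The HDM effect itself was compared between the populations by the interaction, the effect in B7hi minus that in B7low. It passed edgeR's test for 0 of the 9 genes and for 0% of all tested genes, and 4 of the 9 had an unadjusted p under 0.05, against 8.55%. DESeq2 and limma-voom also called 0 of the 9. The 4 were Ltb4r1 (−3.51 ± 0.93, unadjusted p = 0.0018, adjusted 0.26), Ptgs1 (2.30 ± 0.81, adjusted 0.47), Ptgs2 (−2.92 ± 1.10, adjusted 0.53) and Hpgds (1.33 ± 0.55, adjusted 0.53). With no count filter, Ltb4r1 (−3.63, adjusted p = 7.8e-04), Ptgs1 (adjusted p = 0.049) and Ptgs2 (−3.04, 0.031) passed. The interaction of Tbxas1 (0.74 ± 1.00, adjusted p = 0.89) turned to −2.91 without both B7low saline 2 and B7hi HDM 2. B7low saline 1, with 1 Tbxas1 count, is then alone in its group. For Ltb4r1, Ptgs1, Ptgs2 and Hpgds the saline libraries of the populations were further apart than the HDM libraries.

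Ordered by group mean, Ltb4r1 ran from B7hi saline (120 CPM) over B7hi HDM (65.6) and B7low HDM (20.2) to B7low saline (3.42). Of these neighbours, B7hi saline and B7hi HDM, B7hi HDM and B7low HDM, and B7low HDM and B7low saline each had ranges that did not overlap and differences that did not pass the test. Between the B7low groups the gap rests on 4 counts in B7low HDM 1 against 2 in each saline library. Hpgds ran from B7low saline (305 CPM) and B7low HDM (289) over B7hi HDM (177) to B7hi saline (73.8). Ptgs1 ran from B7low HDM (84.1 CPM) over B7low saline (57.2) and B7hi HDM (42.1) to B7hi saline (5.92). For both, B7hi saline was the group below all others.

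Across the 10 libraries some of the genes varied together. The correlations are a description that pools all groups and depths, so differences between groups are not separated in them. Alox5 and Alox5ap had a Pearson correlation of 0.83 in log2 CPM, Ptgs1 and Hpgds of 0.75, and Lta4h and Ltb4r1 of 0.83. Hpgds had a correlation of −0.89 with Lta4h and −0.77 with Ltb4r1. Ptgs1 and Ptgs2 had −0.22. Pla2g4a and Ptgs2 are neighbours on chromosome 1, 138741 bases apart, and had 0.36.

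The genes whose pattern over the 10 libraries was most like that of a member were picked among the other genes with a mean of at least 20 CPM. For Hpgds they were Fgfr1, Cobl and the IL-33 receptor Il1rl1 (Pearson r = 0.96, 0.96 and 0.95). For Ptgs1 they were the lysosomal protease Ctsd, Ly6a and the decarboxylase Ddc (0.96, 0.96 and 0.93). For Ltb4r1 they were Vdac3, Os9 and Wdr1 (0.97, 0.96 and 0.96), for Alox5 the tetraspanin Cd63, Plscr1 and Renbp (0.93, 0.90 and 0.90), and for Alox5ap Sec31a, Med10 and Stk25 (0.91, 0.90 and 0.90).

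A wider set of 86 other genes of the pathway was listed by role, of which 43 were tested. With saline 2 were higher and 1 lower in B7hi, with HDM 0 and 1, and averaged over both challenges 3 and 3. These 3, 1 and 6 of 43 stand against 6.54%, 2.84% and 11.9% of all tested genes, and are near that background. HDM against saline and the interaction gave 0 edgeR calls among them, with 1 (B7hi), 5 (B7low) and 3 (interaction) at an unadjusted p under 0.05, against 4.13%, 9.08% and 8.55% of all tested genes. Their median log2 fold change was 0.03 in the average over both challenges, as it was over all tested genes.

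Among the genes of arachidonate release and recycling, 2 of 16 were higher and 1 lower in B7hi averaged over both challenges. Pla2g7, which encodes the platelet-activating factor acetylhydrolase, stood at 8.31 and 14.6 CPM in B7hi and 776 and 530 CPM in B7low with saline, and at 109, 9.79 and 17.8 against 599, 778 and 495 CPM with HDM. B7hi and B7low did not overlap in either challenge. The log2 fold change was −5.79 ± 1.04 with saline (edgeR adjusted p = 0.017), −3.67 ± 0.75 with HDM (0.046) and −4.73 ± 0.65 on average (0.0028). The call with saline was lost without any 1 of the 4 saline libraries (up to 0.19), and the call with HDM passed in 7 of 20 alternatives and in 2 of the 10 that leave out a library (up to 0.14 without B7low HDM 1). Pla2g16, a phospholipase abundant in adipose tissue, was higher in B7hi, at 39.1 to 44.4 CPM over the 5 libraries against 3.50 to 24.6 CPM in B7low (average 2.02 ± 0.36, adjusted p = 0.0015, and 2.97 ± 0.61, 0.0073 with saline, lost without B7low saline 1 at 0.057 and with limma-voom at 0.14). Faah, which breaks down the arachidonate amide anandamide, was higher too, at 19.6 to 44.6 against 8.74 to 17.6 CPM (1.29 ± 0.33, adjusted p = 0.016). Its call was lost without B7hi saline 1 (0.071), B7hi saline 2 (0.052), B7low saline 1 (0.058) or B7hi HDM 3 (0.051). Lpcat2, an acyltransferase that makes platelet-activating factor, was the most abundant of this list, at 267 to 611 CPM over all libraries, and was not called.

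In the prostanoid lists, 1 receptor and 1 breakdown enzyme passed, both lower in B7hi. Hpgd, which inactivates prostaglandins, had 0 counts in both B7hi saline libraries and in B7hi HDM 2, and stood at 4.38 and 0.68 CPM in the other B7hi libraries and 1.67 to 78.6 CPM in B7low (average −4.90 ± 1.21, edgeR adjusted p = 0.019, lost with limma-voom at 0.29, without both B7low saline 2 and B7hi HDM 2 at 0.079, without B7hi saline 1 at 0.060, B7hi saline 2 at 0.070 and B7low saline 1 at 0.26). The 78.6 CPM (58 counts) were in B7low HDM 1, the library with the highest B cell (606 CPM) and endothelial (336 CPM) marker sums, and the other B7low HDM libraries stood at 5.20 and 20.2 CPM. The part of such cells in the Hpgd levels was not tested. Hpgd was 1 of 4 tested genes of prostanoid export and breakdown, where Ptgr2 (57.2 CPM on average) and the exporter Abcc4 (16.0) were the most abundant. Ptger3, the prostaglandin E2 receptor EP3, was the 1 of 4 tested receptors that passed, at 20.5 to 41.1 CPM in B7hi and 28.4 to 108 CPM in B7low (−1.30 ± 0.32, adjusted p = 0.015, and −0.74, 0.17 without B7low saline 1, 0.055 without B7hi saline 1 and 0.066 without B7hi saline 2). Ptger4, the EP4 receptor, averaged 20.6 CPM and was not called. Of 8 other genes of prostanoid synthesis 3 were tested and 0 called by edgeR, with 0 at an unadjusted p under 0.05 in any of the 6 contrasts. Their most abundant were Ptges3 (229 CPM), a cytosolic prostaglandin E synthase and chaperone partner, and Akr1b3 (26.9 CPM).

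The leukotriene lists held few abundant genes. The leukotriene C4 exporter Abcc1 averaged 144 CPM and Cyp4f18, which breaks down leukotriene B4, 22.7 CPM, the latter with 140 CPM in B7low HDM 1 and 2.05 to 29.3 CPM elsewhere. Of 11 such genes 4 were tested and 0 passed between the populations, with 1 at an unadjusted p under 0.05 with saline, 1 with HDM and 2 on average. The 1 with HDM was Cyp4f18 (log2 fold change −3.31 ± 0.84, edgeR adjusted p = 0.057). Of 6 other lipoxygenases 2 were tested and 0 passed, with 0 at an unadjusted p under 0.05, and Alox8 averaged 14.0 CPM. Alox15 had counts in 3 libraries, with 44.7 CPM in B7low HDM 1. That library also had the highest B cell (606 CPM) and endothelial (336 CPM) sums, the latter with Egfl7 at 69.1, Tek at 54.2 and Cdh5 at 21.7 CPM. Their part in the Cyp4f18 and Alox15 levels was not tested. None of the 7 other leukotriene and lipoxin receptors passed the count filter, with Oxgr1 (1.91 CPM) and Cysltr2 (1.35 CPM) the most abundant on average, so Ltb4r1 was the one leukotriene receptor tested.

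Of 10 regulators of phospholipase A2 and 5-lipoxygenase, all tested, 1 passed. Mapkapk3, a kinase downstream of p38, was higher in B7hi, at 272 and 152 against 62.9 and 90.3 CPM with saline (log2 fold change 1.46 ± 0.34, edgeR adjusted p = 0.016) and by 1.11 ± 0.22 on average (0.0027). The call with saline was lost without B7hi saline 1 (0.24) or B7low saline 1 (0.10) and with only the saline groups in the fit (0.095). The glutathione peroxidases Gpx4 and Gpx1, which reduce lipid hydroperoxides, were the most abundant, at 229 to 358 and 182 to 287 CPM.

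**Figure D4:**
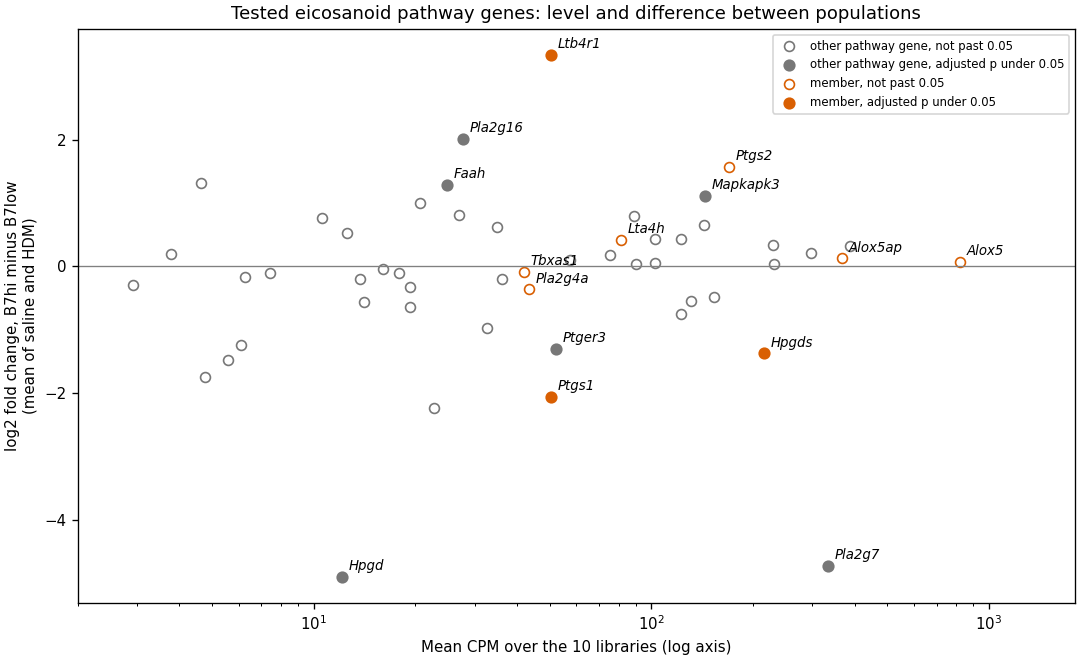
Mean CPM over the 10 libraries (log axis) against the log2 fold change between B7hi and B7low, averaged over saline and HDM, for the 9 tested members and 43 other tested pathway genes. Filled points passed edgeR adjusted p under 0.05, with Ltb4r1 highest at 3.34 and Hpgd (−4.90) and Pla2g7 (−4.73) lowest.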

How the data were processed

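The deposited table holds raw counts per gene symbol, whole numbers as the authors made them, for 10 SmartSeq2 libraries sequenced paired-end with 25 nt reads per the labels. Build mm10, DESeq2, Cufflinks 2.2.1 and TopHat2 2.0.10 appear in the submitters' processing notes without roles. How reads were counted, on which gene models and whether by strand is not given in the sources used here. Groups and replicate numbers come from the sample titles.

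Counts were filtered with filterByExpr (10533 genes kept), normalized by TMM and tested in R 4.3.3 with the robust quasi-likelihood model of edgeR 4.0.16, with 1 mean per group over all 10 libraries. The 6 contrasts were tested two-sided, with Benjamini-Hochberg adjustment over all genes tested and a threshold of 0.05. The SE is approximate, derived from the log2 fold change and its F statistic. CPM use the TMM-scaled library size. Library totals ran from 525983 to 1725818, and limits from a count of 0 use these unscaled totals and cover counting error only. The fit was tested on simulated data.

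The members and gene lists were chosen with earlier results of these data known. Named genes are all members, the other pathway genes past the threshold in any contrast, the 2 most abundant of each list, and the 3 genes most alike by Pearson r (log2 CPM with a prior count of 2, predicted gene models left out) for each called member and the 3 most abundant. Coordinates and exon lengths are from GENCODE M21 (GRCm38, called mm10), and promoters from RefSeq, with 9 of 10 members matched. Alternatives were DESeq2 size factors, library size alone, DESeq2 1.42.0, limma-voom (limma 3.58.1) with quality weights, no count filter and at least 5 CPM in 2 libraries. Others were only the groups compared, each library left out, the replicate number as a block, and B7low saline 2 and B7hi HDM 2 both left out. That pair, which had the lowest total counts, is called the low-depth libraries below, although B7low saline 1 had nearly as few (652736). Leaving both out keeps B7low saline 1 alone in its group.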

Additional observations from a re-analysis of the deposited data

How the results depend on the processing

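All 19 member values with an unadjusted p under 0.05 kept their direction under every alternative run. The other 35 gained no call under an alternative, apart from a fit that left B7low saline 1 alone in its group (Tbxas1, averaged over both challenges, given above).

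Counts of members called by edgeR were 3 with saline (1 to 4 with a library left out, with 1 without B7hi saline 1, B7hi saline 2 or B7low saline 1), 0 with HDM (0 to 1 left out) and 3 averaged over both challenges. With HDM the count was 1 with DESeq2, with no count filter and with the replicate block, additive or nested in the challenge. HDM against saline in B7hi gave 0, but 1 with DESeq2 and 3 with no count filter. In B7low it gave 0, but 1 with DESeq2 and 2 with no count filter. The interaction gave 0, but 3 with no count filter.

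All genes called with saline (689) became 1078 with no count filter, 370 with only those groups in the fit and 226 to 685 with a library left out. With HDM (299) they became 507 with DESeq2, 548 with no count filter and 137 to 368 with a library left out. The average over both challenges (1251) gave 1411 with DESeq2, 1078 with limma-voom and as few as 659 among the alternatives. In B7hi the 1 gene called for HDM became 54 with DESeq2, 11 with limma-voom, 89 with no count filter, 6 with the additive block, 5 without both low-depth libraries and 0 with only those groups. With a library left out it was 0 to 11. In B7low the 1 became 19, 0, 112, 2, 0 and 0 in the same order (0 to 13 with a library left out), and 0, 3 and 4 with DESeq2 size factors, the 5 CPM filter and library size alone. The interaction (0) became 41 with DESeq2, 143 with no count filter, 3 with the 5 CPM filter, 2 with library size alone, 0 to 3 with a library left out and 1 without both low-depth libraries. The cause was not tested.

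Same-numbered B7hi and B7low libraries had correlations of deviations from −0.11 to 0.04, and unlike-numbered ones from −0.12 to 0.20. In groups of 2 the deviations mirror each other, so these values cannot tell whether equal numbers are pairs. The labels do not state pairs, so none were taken, and the block changed no member call other than Ltb4r1 with HDM. With 4 counts of Ltb4r1 in B7low saline and 33 of Ltc4s in all, depth limits both values.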
